A study of Homo sapiens with 12 samples.

Results

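The 10 genes described here store, import and release iron, supply cysteine for glutathione, and set how readily membrane lipids are oxidised, the event that ends in ferroptosis, an iron-dependent form of cell death. They were taken by name from a table of 59172 features, and all 10 were found and passed the filter on low values that left 18062 genes for testing. SLC7A11, which imports cystine, GPX4, which removes lipid peroxides, NQO1, a quinone reductase, and FTL, the ferritin light chain, fell with CPT-11, by 0.35 to 0.64 on the log2 scale, and were also below untreated cells where lovastatin preceded it. These calls against untreated cells held in all 13 alternative fits for SLC7A11, GPX4 and NQO1. For FTL they held in 10 with CPT-11 alone and in 8 with lovastatin and CPT-11. HMOX1, which breaks down haem, rose in every group given CPT-11. With SHP2 silenced, SLC7A11, GCLM and ACSL4 were lower than in every other group, by 0.43 to 1.48. The SLC7A11 and GCLM calls held in all 13 alternative fits. Those of ACSL4 held in 8 against CPT-11 alone and in 7 against lovastatin with CPT-11. NQO1 was also lowest in silenced cells, but was not called against lovastatin with CPT-11. FTH1, the ferritin heavy chain, varied more between the replicates of the untreated and CPT-11 groups than any of the other 9 genes. In the main limma fit with all libraries none of its 3 comparisons with the CPT-11 group was called. All 3 were called without CPT-11 replicate 3, the highest of its group, and none without CPT-11 replicate 2. Alternative fits with all libraries (voom, scaling to total reads) also called the rise in silenced cells over CPT-11 alone.

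The libraries came from HCT-116, a human colorectal carcinoma line, in 4 groups of 3. Untreated cells and cells given CPT-11 for 24 h were wild type. CPT-11 is irinotecan, a prodrug of a topoisomerase I poison. Another wild-type group had lovastatin, an inhibitor of HMG-CoA reductase, for 4 h before CPT-11 for 24 h. The last had SHP2 (gene PTPN11) silenced and CPT-11 for 24 h, and its hairpin is named only in the sample titles. The treatment label of that group also lists the 4 h of lovastatin, whereas titles and protocol do not, and it was grouped by title. Every treated group had CPT-11, and no group had lovastatin alone, SHP2 silencing alone or a control hairpin. Whether a group's 3 libraries came from separate cultures is not stated, so the p-values speak of the spread among these libraries alone, which may be technical. How many clones the silenced cells stand for is not given either.

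Values are FPKM, reads per kilobase of gene scaled by a factor for each library, and 14447847 to 16224271 reads per library were assigned to genes. PTPN11 measured 6.01 to 7.15 FPKM in silenced cells and 43.2 to 55.4 FPKM in the other 9 libraries. HMGCS1, a sterol synthesis gene that responds to statins, measured 101 to 105 FPKM with lovastatin and 24.9 to 25.8 FPKM in silenced cells. Of 11 colon epithelial markers 6 had a mean of at least 1 FPKM, and of 15 markers of fibroblasts, vessels, blood and liver 2 did. The summed level of the 15 was 4.62 to 5.89 FPKM untreated, 6.86 to 9.10 with CPT-11, 8.18 to 9.02 with lovastatin and 9.19 to 10.1 in silenced cells, and its part in the results was not tested. CPT-11 replicate 3 differed from replicates 1 and 2 of its group. Over the genes tested its correlation was 0.982 and 0.977 with them, and 0.990 to 0.993 with the lovastatin and silenced libraries. Whether replicate 3 or replicates 1 and 2 departed cannot be told from 3 libraries. Results that rest on replicate 3 are therefore given with and without it.

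Iron proteins are controlled largely after transcription. When iron is scarce, iron regulatory proteins bind hairpins called iron-responsive elements: a hairpin near the start of the ferritin messages blocks their translation, and a row of hairpins behind the coding part of the transferrin receptor message protects it from decay. Only the second action changes how much message RNA-seq counts, so ferritin RNA levels do not report ferritin protein. Cystine enters through a transporter made of SLC7A11 and SLC3A2 and is reduced to cysteine. Glutathione is built from cysteine in steps, the first by an enzyme of which GCLM is the modifier subunit. GPX4 uses glutathione to reduce lipid peroxides, and its active site holds selenocysteine, inserted at a UGA codon that would otherwise stop translation. FTH1, FTL, HMOX1, NQO1, GCLM and SLC7A11 are known targets of the transcription factor NRF2. ACSL4 loads polyunsaturated fatty acids, the lipids most open to oxidation, for insertion into membranes.

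Hairpins of the 2 ferritin genes and the receptor were located in the GENCODE 29 transcripts FTH1-201, FTL-201 and TFRC-201. The pattern was a bulged C, 5 paired bases and the loop CAGTG followed by A, C or T. Only the bases before the coding sequence were searched in the ferritin transcripts, and only those behind it in the receptor transcript. They are written 5′ to 3′ as DNA, with the 6 bases of the loop in capitals.
FTH1, chr11:61967573-61967602, minus strand, before the coding sequence: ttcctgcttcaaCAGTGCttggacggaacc
FTL, chr19:48965335-48965364, plus strand, before the coding sequence: ctcttgcttcaaCAGTGTttggacggaaca
TFRC, chr3:196050978-196051007, minus strand, behind the coding sequence: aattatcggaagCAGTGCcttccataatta
TFRC, chr3:196050574-196050603, minus strand: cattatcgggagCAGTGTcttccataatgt
TFRC, chr3:196050509-196050538, minus strand: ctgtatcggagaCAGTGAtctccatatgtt
TFRC, chr3:196050462-196050491, minus strand: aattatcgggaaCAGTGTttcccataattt
The stretch searched held 1 such match in each ferritin transcript and 4 in the receptor transcript. In GPX4-201 the only in-frame TGA before the end was codon 73 of 197, shown in capitals.
GPX4, chr19:1105391-1105420, plus strand: gtggcctcccagTGAggcaagaccgaagta

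The changes between groups were counted for the 10 genes and for all genes tested. A gene was called at a Benjamini-Hochberg adjusted p under 0.05 in limma on log2(FPKM + 1), with the adjustment over all 18062 genes. With CPT-11 against untreated cells 6 of the 10 were called, 1 higher and 5 lower, where 16.5% of all genes were called (8.85% higher, 7.70% lower). Their median log2 difference was −0.38, against −0.01 over all genes. With lovastatin added, 1 of the 10 was called against CPT-11 alone, higher, where 0.465% of all genes were called (0.393% higher, 0.0720% lower). The medians were 0.02 and 0.00. With SHP2 silenced, 4 of the 10 were called against CPT-11 alone, all of them lower, where 22.0% of all genes were called (10% higher, 12% lower). The medians were 0.05 and 0.00.

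**Figure D1:**
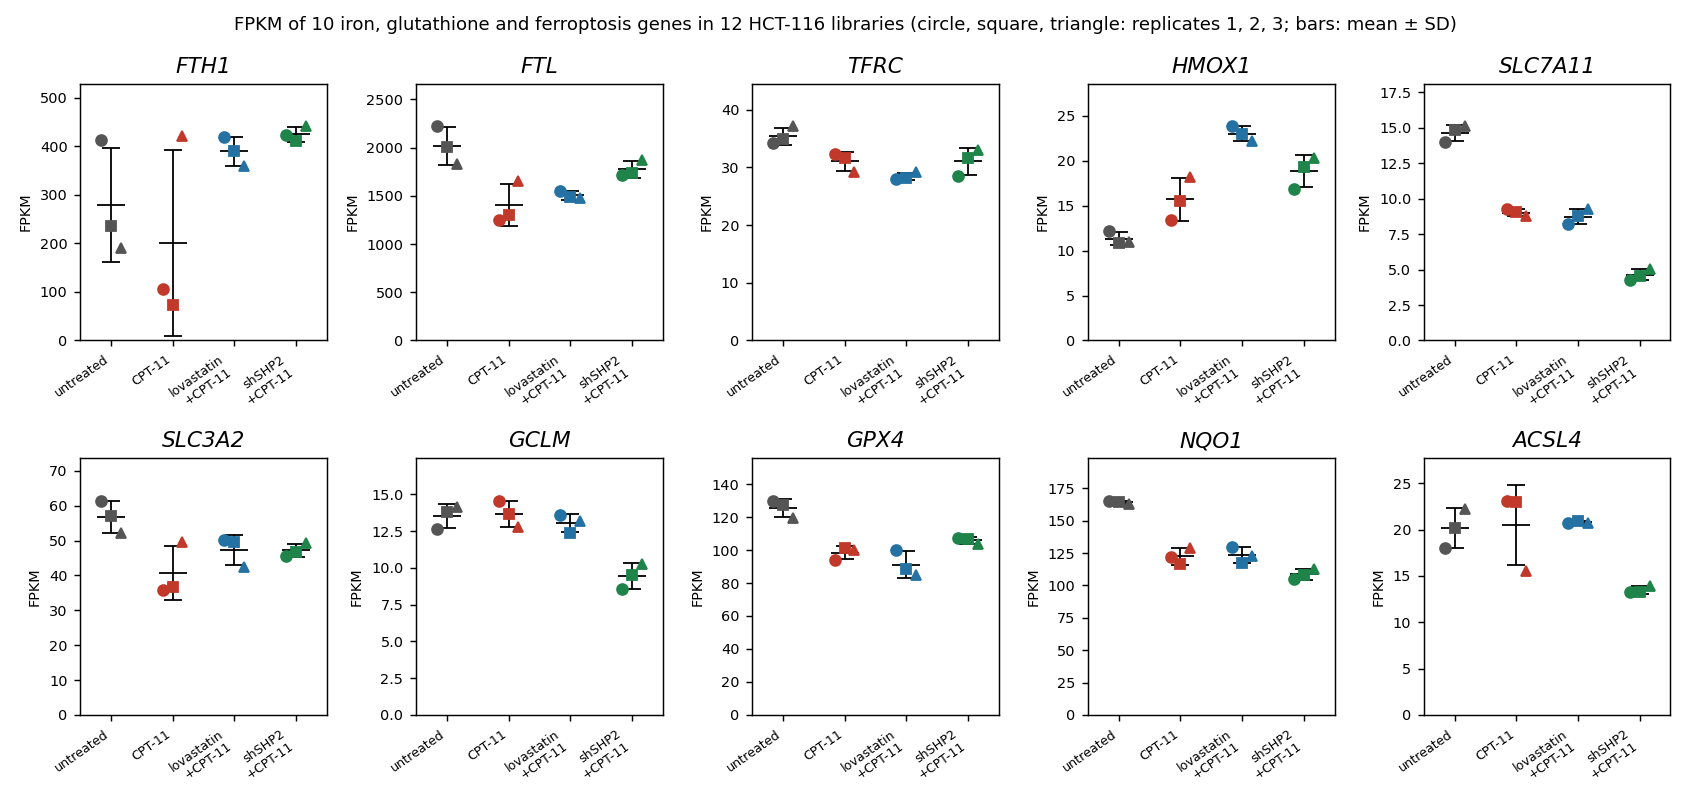
FPKM of the 10 genes (y axis, linear from 0, a scale for each gene) in the 12 libraries by group (x axis). Circles, squares and triangles are replicates 1, 2 and 3, and the bars are the mean ± SD of 3 libraries; SLC7A11 steps down from 14.0 to 15.1 FPKM untreated to 4.27 to 5.03 in silenced cells, and the FTH1 triangle of the CPT-11 group, 422 FPKM, lies far above the circle and square of its group.

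The other comparisons rested on the same libraries. Silenced cells against lovastatin with CPT-11 had 3 of the 10 called, all lower, where 6.84% of all genes were called (2.58% higher, 4.26% lower). The medians were −0.09 and 0.00. Lovastatin with CPT-11 against untreated cells had 6 called, 1 higher and 5 lower, where 29% of all genes were called (14.7% higher, 14.3% lower), with medians of −0.28 and 0.00. Silenced cells against untreated cells had 7 called, 1 higher and 6 lower, where 37.8% were called (18.3% higher, 19.5% lower), with medians of −0.25 and 0.00. The 3 comparisons with untreated cells share their controls, as do the 2 with CPT-11 alone. Without CPT-11 replicate 3 the members called were 1 higher and 6 lower for CPT-11 against untreated, where 24.5% of all genes were called. They were 3 higher and none lower for lovastatin against CPT-11 alone, beside 30.2% of all genes, and 4 higher and 3 lower for silenced cells against CPT-11 alone, beside 43.5%.

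**Figure D2:**
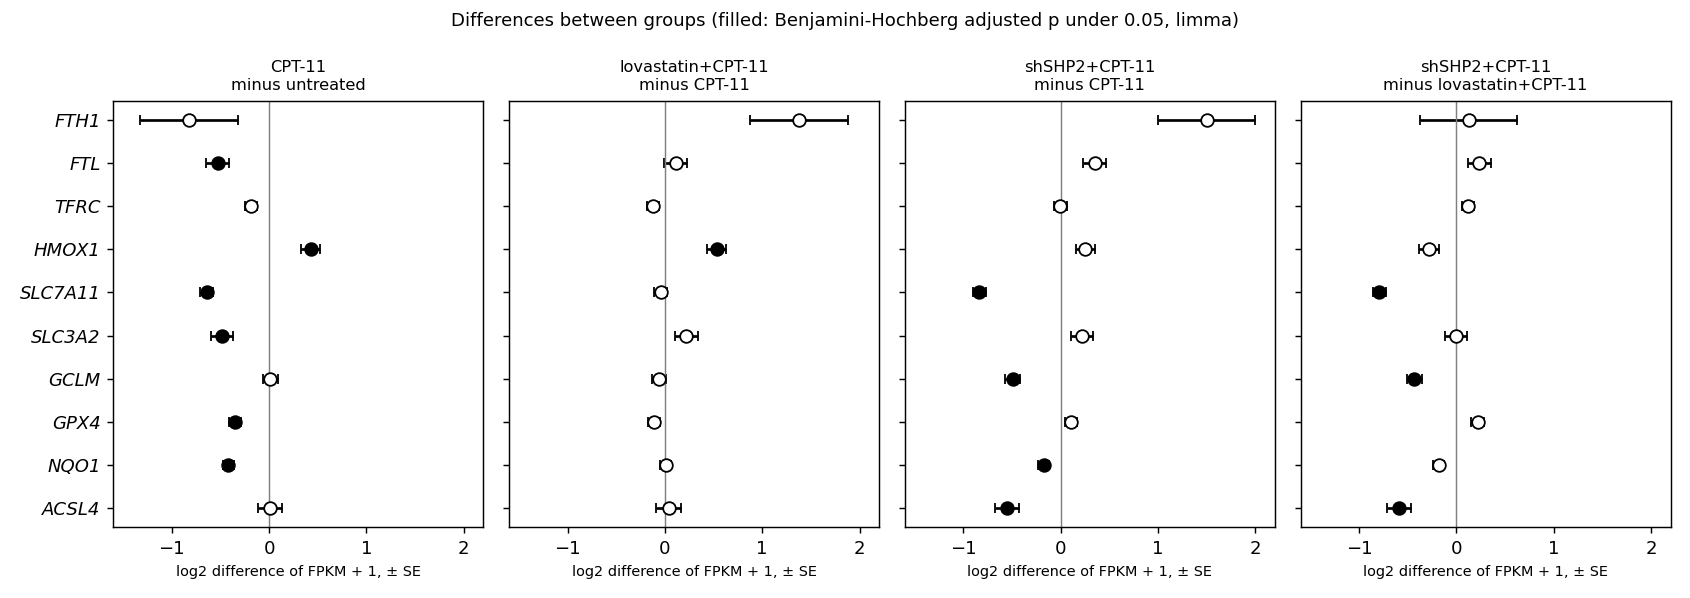
Log2 difference of FPKM + 1 (x axis) with its limma standard error for each of the 10 genes (y axis) in 4 comparisons; filled points have an adjusted p under 0.05. SLC7A11 is filled on the lower side in 3 of the 4 panels, HMOX1 on the higher side in 2, and FTH1 has the widest errors, ± 0.50, and is filled in none.

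FTH1 (ENSG00000167996, chr11:61959718-61967660, minus strand, GRCh38 as for all positions here) encodes the ferritin subunit with ferroxidase activity. It measured 413, 235 and 191 FPKM in untreated replicates 1, 2 and 3. In the CPT-11 group it measured 106, 73.9 and 422 FPKM. The lovastatin libraries held 419, 391 and 360 FPKM, and silenced cells 423, 411 and 441 FPKM. The CPT-11 group therefore held both the lowest values of the series and, in replicate 3, 1 of its highest, while the lovastatin and silenced groups were tight. The group means were 280 ± 118 untreated, 201 ± 192 with CPT-11, 390 ± 30 with lovastatin and 425 ± 15 in silenced cells (FPKM, SD, n = 3). Silenced cells lay above 2 of the 3 CPT-11 libraries, and the groups overlapped.

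None of the 6 comparisons of FTH1 passed the main test with all libraries. CPT-11 was 0.82 ± 0.50 (SE) lower than untreated on the log2 scale (adjusted p = 0.31). Without CPT-11 replicate 3 the fall was 1.57 ± 0.26 (adjusted p = 0.0018). Lovastatin with CPT-11 stood 1.38 ± 0.50 above CPT-11 alone (adjusted p = 0.19), or 2.12 ± 0.26 with that replicate left out (adjusted p = 0.00087). Silenced cells stood 1.5 ± 0.50 above CPT-11 alone (adjusted p = 0.052), or 2.25 ± 0.26 without that replicate (adjusted p = 0.00015). The direction was the same either way in all 3, and of the fits that left out a library only those without replicate 3 gave calls. Leaving out CPT-11 replicate 2 instead took the 3 log2 differences to −0.32, 0.87 and 1.00, none called (adjusted p = 0.72, 0.57 and 0.20). Against untreated cells the differences were 0.55 with lovastatin and 0.68 in silenced cells (adjusted p = 0.44 and 0.31), and without untreated replicate 1, the highest of its group, the latter was 1.00 (adjusted p = 0.18). On recovered reads with voom the rise in silenced cells over CPT-11 alone passed (adjusted p = 0.015), as it did after scaling to total reads (adjusted p = 0.048).

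The replicate 3 value of FTH1 was 4.69 times the mean of CPT-11 replicates 1 and 2, and of the 18062 genes tested 4 departed upward in that library at least as far on the log2 scale. Untreated replicate 1 was 1.94 times the mean of the other untreated replicates, with 38 genes at least as far up. The departures of CPT-11 replicate 3 went with base composition across all genes: their median was −0.19, −0.02 and 0.24 (log2) in the lowest, middle and highest of 3 equal bins of genes by GC content of the longest transcript. Untreated replicate 1 had the same order with −0.10, 0.00 and 0.11. RN7SL2, an RNA of the signal recognition particle that an earlier account of these files sets beside FTH1, measured 400 FPKM in CPT-11 replicate 3, against 37.2 and 17.6 in replicates 1 and 2. Its levels were 71.1 to 155 FPKM untreated, 227 to 346 with lovastatin and 1065 to 1469 in silenced cells. The part of base composition or of RNA handling in the FTH1 values was not tested.

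**Figure D3:**
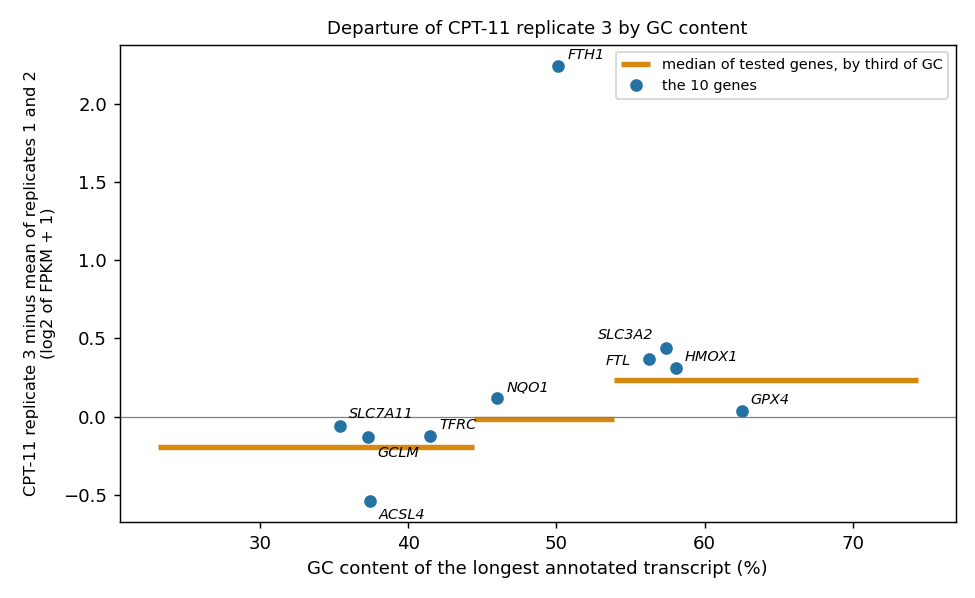
Departure of CPT-11 replicate 3 from the mean of replicates 1 and 2 (y axis, log2 of FPKM + 1) against the GC content of each gene's longest annotated transcript (x axis, percent). Points are the 10 genes, and bars are the medians of 3 bins of 5931 genes each by GC content; FTH1 lies at 2.24, and the other 9 genes between −0.54 and 0.44.

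Among the other 9 genes the departures of replicate 3 ran from −0.54 for ACSL4 to 0.44 for SLC3A2. FTL departed by 0.37, HMOX1 by 0.31 and NQO1 by 0.12, and GCLM by −0.13, TFRC by −0.12 and SLC7A11 by −0.06. GPX4 departed by 0.03 and was the only 1 of the 10 for which replicate 3 lay between replicates 1 and 2. The 4 genes with the lowest GC content (SLC7A11 35.4%, GCLM 37.3%, ACSL4 37.4% and TFRC 41.5%) all departed downward, and the other 6 departed upward. By this measure FTH1, with 50.1% GC in its longest transcript, lay in the middle bin, whose median departure was −0.02.

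The exons of FTH1 overlap those of another gene. BEST1, a chloride channel gene, lies on the opposite strand, and 1267 of the 2030 exonic bases of FTH1 (62.4%) are also BEST1 exon in GENCODE 29. Of the 1229 bases of transcript FTH1-201, 880 were shared and 349 were not; those 349 form its first exon, with 67.9% GC against 43.1% in the shared bases. BEST1 had 2 to 19 reads per library and FTH1 2297 to 14482. How reads in shared exons or on opposite strands were counted is not given in the sources used here, and which bases the FTH1 value rests on is not known. Of the 611 genes tested with 65% to 71% GC, the median departure of CPT-11 replicate 3 was 0.54, and the 5th and 95th percentiles were 0.08 and 1.14. The 2.24 of FTH1 was above them. For the other members the shared bases were 865 of 9645 in SLC7A11 (with SLC7A11-AS1), 575 of 3254 in NQO1, 78 of 6415 in ACSL4 and 0 in the remaining 6.

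**Figure D4:**
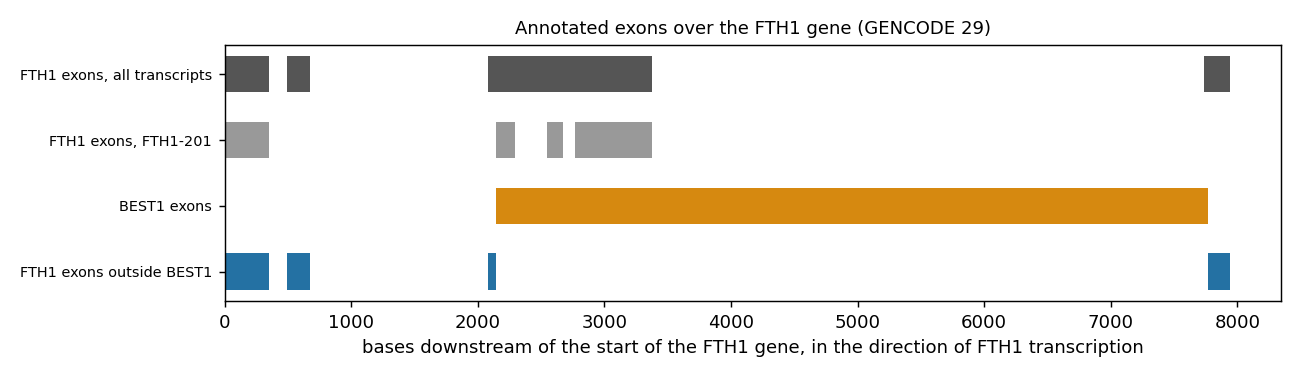
Annotated exons over FTH1 (x axis, bases from the gene's start in the direction of its transcription; rows, exons of all FTH1 transcripts, of FTH1-201, of BEST1 and the FTH1 exons left outside BEST1). The first exon of FTH1-201 is its only exon outside BEST1, and 763 of 2030 exonic bases are left over all transcripts.

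The 5 genes whose log2 level ran most like that of FTH1 over the 12 libraries, among 4570 protein-coding genes with a mean of at least 10 FPKM, were LRFN4, AURKAIP1, DVL1, AES and SLC16A3, with Pearson r of 0.98 to 0.99. Within the CPT-11 group each of them was highest in replicate 3: LRFN4 measured 6.55, 4.02 and 17.8 FPKM in the CPT-11 libraries and AURKAIP1 31.0, 24.4 and 61.3 FPKM. Their longest transcripts had 57.8% to 68.3% GC. The 12 points share their groups and the split between the CPT-11 replicates, so these r describe likeness only. Ferritin has many processed copies in the genome whose reads can be mistaken for the parent's. The 25 rows named as FTH1 pseudogenes held 159 to 316 reads per library in all, and the 16 named as FTL pseudogenes 18 to 50, against 17543 to 28199 for FTL.

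FTL (ENSG00000087086, chr19:48965301-48966878, plus strand) encodes the light chain, which aids iron core formation. It measured 2219, 2007 and 1826 FPKM in untreated cells and 1253, 1306 and 1651 FPKM with CPT-11. Lovastatin cells had 1554, 1486 and 1473 FPKM, and silenced cells 1710, 1739 and 1876 FPKM. Every untreated library was above every CPT-11 and lovastatin library, and untreated and silenced libraries overlapped. FTL fell with CPT-11 by 0.53 ± 0.12 (adjusted p = 0.013). Without CPT-11 replicate 3 the fall was 0.65 (adjusted p = 0.0016), and the call was lost without replicate 1, where the fall was 0.45 (adjusted p = 0.0505), with no filter (0.10) and with only these 2 groups fitted (0.089). Lovastatin with CPT-11 was also below untreated, by 0.42 ± 0.12 (adjusted p = 0.024), a call lost on leaving out any 1 of 4 libraries: untreated replicate 1 or 2 (adjusted p = 0.079 and 0.066) or lovastatin replicate 2 or 3 (0.070 and 0.065). It was also lost with no filter (0.15). Silenced cells stood 0.35 above CPT-11 alone with no overlap (adjusted p = 0.060), or 0.47 with CPT-11 replicate 3 left out (adjusted p = 0.0047). The rise also passed with voom (adjusted p = 0.011), with a filter on a mean of 1 FPKM (0.032) and after scaling to total reads (0.038). FTL differed by 0.11 between lovastatin and CPT-11 alone (adjusted p = 0.61).

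The ratio of the deposited FPKM values of the 2 ferritin genes split the libraries. FTL was 3.71 to 4.25 times FTH1 in all 6 lovastatin and silenced libraries. In untreated cells the ratio was 5.37, 8.54 and 9.54, and with CPT-11 it was 11.8, 17.7 and 3.91. CPT-11 replicate 3 thus had a ratio inside the range of the lovastatin and silenced libraries, where replicates 1 and 2 had the highest ratios of the series. Which of the 2 messages was the more abundant cannot be read from these ratios, since the deposited FPKM divides FTH1 reads by all 2030 exonic bases. Were the reads only from the 763 bases outside BEST1, the ratio would be 1.39 to 6.64 over the 12 libraries. Were they only from the 349 bases of the first exon, it would be 0.637 to 3.04, and below 1 in all 6 lovastatin and silenced libraries, at 0.637 to 0.731. Each length multiplies the ratios of all 12 libraries by the same factor, so their order could not change.

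**Figure D5:**
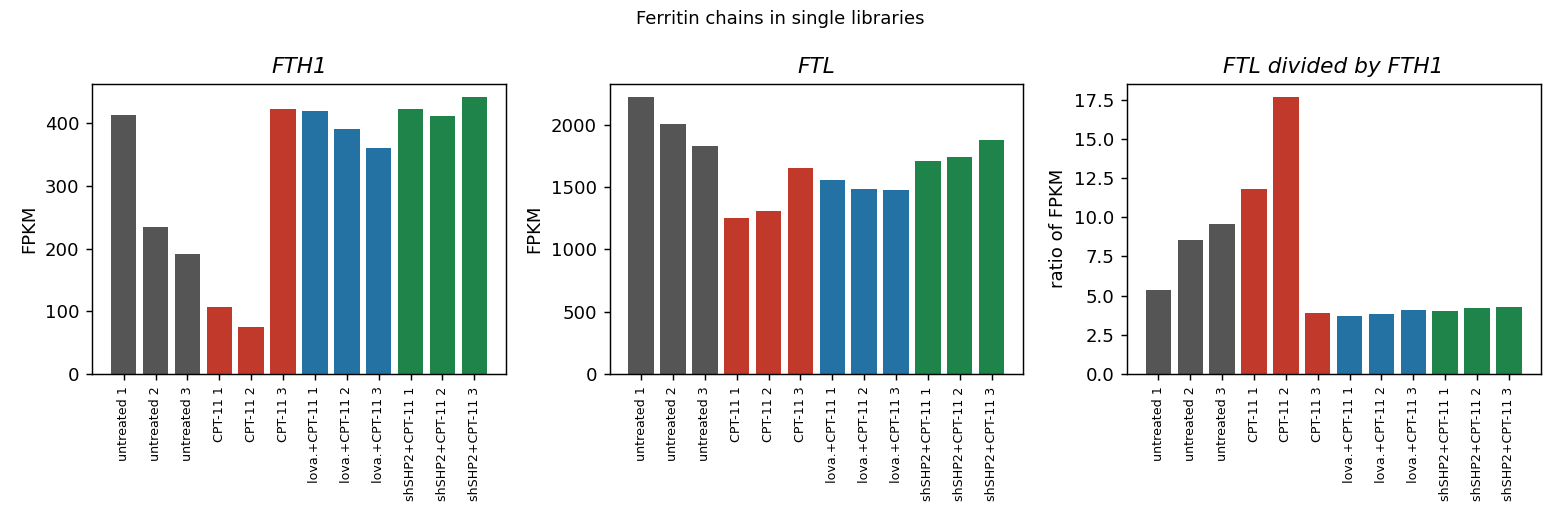
FPKM of FTH1 and FTL and their ratio (y axes, linear from 0) in each of the 12 libraries (x axis); each bar is 1 library. FTH1 spans 73.9 to 441 FPKM and FTL 1253 to 2219 FPKM, and the ratio is 3.91 in CPT-11 replicate 3 against 11.8 and 17.7 in replicates 1 and 2.

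TFRC (ENSG00000072274, chr3:196027183-196082189, minus strand) encodes the receptor that takes up transferrin-bound iron. It measured 34.2, 34.9 and 37.1 FPKM untreated and 32.4, 31.6 and 29.3 FPKM with CPT-11. Lovastatin cells had 28.0, 28.2 and 29.2 FPKM, and silenced cells 28.4, 31.7 and 33.1 FPKM. Untreated libraries were the highest and did not overlap with any treated group. TFRC was below untreated by 0.30 ± 0.06 with lovastatin (adjusted p = 0.0043) and by 0.18 ± 0.06 with CPT-11 alone (adjusted p = 0.070). In silenced cells it fell by 0.18 (adjusted p = 0.038), and that call was lost without untreated replicate 2 or 3 (adjusted p = 0.076 and 0.13), without silenced replicate 1 or 2 (0.15 and 0.067), with no filter (0.076), with replicate numbers as a block (0.062) and after scaling to total reads, where the fall was 0.09 (0.25). The hairpins printed above were searched for only behind the coding part in the receptor and only before it in the ferritin genes. Among all libraries the TFRC level stayed within 28.0 to 37.1 FPKM.

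HMOX1 (ENSG00000100292, chr22:35380361-35394214, plus strand) encodes haem oxygenase 1, which releases iron from haem. It measured 12.2, 10.9 and 11 FPKM untreated and 13.4, 15.5 and 18.1 FPKM with CPT-11. The lovastatin libraries held 23.8, 23.0 and 22.2 FPKM, and silenced cells 16.9, 19.2 and 20.3 FPKM. All 9 treated libraries were above all untreated ones, and all lovastatin libraries above all others. HMOX1 rose by 0.43 ± 0.10 with CPT-11 (adjusted p = 0.013), by 0.96 ± 0.10 with lovastatin and CPT-11 (adjusted p = 4.5e-05) and by 0.68 ± 0.10 in silenced cells (adjusted p = 0.00037), each against untreated. Its rise with CPT-11 was 0.32 without CPT-11 replicate 3 (adjusted p = 0.018) and missed the threshold without untreated replicate 2 (adjusted p = 0.052) and with only these 2 groups fitted (0.076).

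HMOX1 was the 1 member called between lovastatin with CPT-11 and CPT-11 alone, at 0.53 ± 0.10 (adjusted p = 0.045; 23.0 ± 0.787 against 15.7 ± 2.37 FPKM, SD, n = 3). Without CPT-11 replicate 3 it was 0.64 (adjusted p = 0.0010). The call was lost on leaving out any of the other 5 libraries, with log2 differences of 0.43 to 0.56: CPT-11 replicate 1 or 2 (adjusted p = 0.15 and 0.16) and lovastatin replicate 1, 2 or 3 (0.20, 0.15 and 0.13). It was also lost with no filter (0.11), with the 2 groups fitted alone (0.29) and with replicate numbers as a block (0.10). In silenced cells HMOX1 was 0.25 above CPT-11 alone (adjusted p = 0.084), or 0.36 with CPT-11 replicate 3 left out (adjusted p = 0.0063), and it passed after scaling to total reads (0.048). It was 0.28 lower in silenced than in lovastatin cells with no overlap (adjusted p = 0.12), which passed where these groups were fitted alone (0.036).

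SLC7A11 (ENSG00000151012, chr4:138164097-138242349, minus strand) encodes xCT, the light chain that exchanges cystine for glutamate. It measured 14.0, 14.9 and 15.1 FPKM untreated and 9.25, 9.06 and 8.76 FPKM with CPT-11. With lovastatin it measured 8.19, 8.80 and 9.24 FPKM, and in silenced cells 4.27, 4.57 and 5.03 FPKM. The levels formed 3 tiers that did not overlap: untreated cells, CPT-11 with or without lovastatin, and silenced cells. CPT-11 was 0.64 ± 0.07 below untreated (adjusted p = 8.8e-05), a mean 0.616 times the untreated one. Silenced cells were a further 0.84 ± 0.07 below CPT-11 alone (adjusted p = 5.7e-05), 0.79 below lovastatin with CPT-11 (adjusted p = 5.2e-05) and 1.48 below untreated (adjusted p = 1.2e-07; a mean 0.316 times the untreated one). Each of these calls held under all 13 alternatives. Between lovastatin with CPT-11 and CPT-11 alone the libraries overlapped, and the difference was −0.04 ± 0.07 (adjusted p = 0.74).

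SLC3A2 (ENSG00000168003, chr11:62856102-62888875, plus strand) encodes 4F2hc, the heavy chain that carries xCT and several other amino acid transporters to the membrane. It measured 61.4, 57.0 and 52.1 FPKM untreated and 35.8, 36.8 and 49.6 FPKM with CPT-11. With lovastatin it measured 50.1, 49.5 and 42.3 FPKM, and in silenced cells 45.5, 46.7 and 49.3 FPKM. The untreated libraries were the highest, and CPT-11 replicate 3 lay with the lovastatin and silenced libraries. SLC3A2 fell with CPT-11 by 0.48 ± 0.11 (adjusted p = 0.015), or by 0.63 with CPT-11 replicate 3 left out (adjusted p = 0.00040). The call was lost without untreated replicate 1 (adjusted p = 0.056) and without CPT-11 replicate 1 or 2 (0.059 and 0.052), and also with only these 2 groups fitted (0.083). Both other groups were 0.22 above CPT-11 alone (adjusted p = 0.29 with lovastatin, 0.18 in silenced cells). Without CPT-11 replicate 3 both differences were 0.37 and were called (adjusted p = 0.0078 and 0.0042). Silenced and lovastatin cells had nearly equal means, 47.2 ± 1.93 and 47.3 ± 4.31 FPKM (SD, n = 3), whereas the partner SLC7A11 was lower in silenced cells.

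GCLM (ENSG00000023909, chr1:93885205-93909456, minus strand) encodes the modifier subunit of glutamate-cysteine ligase, the first enzyme of glutathione synthesis. It measured 12.6, 13.8 and 14.2 FPKM untreated, 14.6, 13.7 and 12.8 FPKM with CPT-11 and 13.6, 12.4 and 13.2 FPKM with lovastatin. In silenced cells it measured 8.55, 9.52 and 10.3 FPKM, below all 9 other libraries. GCLM was lower in silenced cells by 0.49 ± 0.07 against CPT-11 alone (adjusted p = 0.0027), by 0.43 ± 0.07 against lovastatin with CPT-11 (adjusted p = 0.0058) and by 0.48 ± 0.07 against untreated (adjusted p = 0.00060). All 3 calls held under all 13 alternatives. The groups without silencing overlapped, and CPT-11 differed from untreated by 0.01 (adjusted p = 0.93).

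GPX4 (ENSG00000167468, chr19:1103926-1106791, plus strand) encodes the selenoenzyme whose TGA codon is printed above. It measured 130, 127 and 120 FPKM untreated and 94.1, 101 and 100 FPKM with CPT-11. With lovastatin it measured 100.1, 88.5 and 84.8 FPKM, and in silenced cells 107, 107 and 103 FPKM. Untreated libraries were above all others. GPX4 fell by 0.35 ± 0.06 with CPT-11 (adjusted p = 0.0038), by 0.46 ± 0.06 with lovastatin and CPT-11 (adjusted p = 0.00038) and by 0.24 ± 0.06 in silenced cells (adjusted p = 0.012). The last call was lost after scaling to total reads, where the fall was 0.15 (adjusted p = 0.076). Silenced cells stood 0.22 above lovastatin with no overlap (adjusted p = 0.069), and this passed without lovastatin replicate 1 (0.022) and after scaling to total reads (0.032). Against CPT-11 alone the differences were −0.11 with lovastatin (adjusted p = 0.33) and 0.11 in silenced cells (adjusted p = 0.25).

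NQO1 (ENSG00000181019, chr16:69706996-69726951, minus strand) encodes a reductase of quinones that is widely used as a readout of NRF2. It measured 165, 164 and 163 FPKM untreated and 122, 116 and 129 FPKM with CPT-11. With lovastatin it measured 130, 118 and 123 FPKM, and in silenced cells 105, 108 and 113 FPKM. Untreated libraries were the highest by a wide margin, and silenced libraries were below all others. NQO1 fell by 0.42 ± 0.06 with CPT-11 (adjusted p = 0.00047), by 0.41 ± 0.06 with lovastatin and CPT-11 (adjusted p = 0.00032) and by 0.59 ± 0.06 in silenced cells (adjusted p = 2.1e-05), each under all 13 alternatives. Its fall of 0.17 in silenced cells against CPT-11 alone (adjusted p = 0.048) was lost under 11 of 13 alternatives, among them each of the 6 that left out a library, with adjusted p of 0.059 to 0.15; without CPT-11 replicate 3 it was 0.13. Against lovastatin with CPT-11 silenced cells were 0.18 lower (adjusted p = 0.078).

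ACSL4 (ENSG00000068366, chrX:109624244-109733403, minus strand) encodes the acyl-CoA synthetase that favours arachidonic acid. It measured 18, 20.2 and 22.3 FPKM untreated and 23.1, 22.9 and 15.6 FPKM with CPT-11. With lovastatin it measured 20.7, 21.0 and 20.7 FPKM, and in silenced cells 13.3, 13.2 and 13.9 FPKM, below all other libraries. CPT-11 replicate 3 was the lowest of the libraries without silencing. ACSL4 was lower in silenced cells by 0.54 ± 0.13 against untreated (adjusted p = 0.0060), under all 13 alternatives. Against CPT-11 alone it was 0.55 ± 0.13 lower (adjusted p = 0.015), or 0.73 with CPT-11 replicate 3 left out (adjusted p = 7.1e-05); the call was lost without CPT-11 replicate 1 or 2 (adjusted p = 0.068 and 0.066) and without silenced replicate 1 or 2 (0.054 and 0.052), and with only these 2 groups fitted (0.075). Against lovastatin with CPT-11 it was 0.59 ± 0.13 lower (adjusted p = 0.017), a call lost on leaving out any lovastatin library (0.054, 0.061 and 0.059) or silenced replicate 1 or 2 (0.065 and 0.067), and with no filter (0.052). Between the groups without silencing ACSL4 differed by 0.01 to 0.05, with adjusted p of 0.81 to 0.97.

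The NRF2 readouts among the members thus did not move as a block: with CPT-11 HMOX1 rose, NQO1, SLC7A11 and FTL fell, and GCLM was not called. NRF2 acts through the antioxidant response element, searched here as TGACNNNGC on both strands in the 250 bases before the RefSeq start sites (GRCh38.p14). Windows were found for 7 of the 10 genes, not for FTH1, HMOX1 and SLC7A11, and bases further upstream were not searched. Of the 11 windows found, 2 held a match, in GCLM and SLC3A2, where 10.9% of all 35116 windows did. They are shown as the 2 windows with a match, which is in capitals, its first base 34 and 37 bases before the start. GCLM was lower in silenced cells in all 3 comparisons, and SLC3A2 was called in none of them with all libraries. SLC3A2 in silenced cells was 0.22 above CPT-11 alone (adjusted p = 0.18), and that rise was called without CPT-11 replicate 3 (adjusted p = 0.0042). It was 0.26 below untreated (adjusted p = 0.095) and nearly equal to lovastatin with CPT-11 (adjusted p = 0.999). The difference between the 2 genes was not tested.
GCLM, chr1:93909446-93909475, minus strand: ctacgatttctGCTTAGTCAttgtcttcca
SLC3A2, chr11:62881651-62881680, plus strand: acgagggtgggTGACTCAGCgtcctccttc
The motifs TGATGNAA, for factors of the amino acid response, and CACGTG matched none of the 11 windows, beside 3.14% and 6.34% of all windows. FTH1, HMOX1 and SLC7A11 were not among the genes searched for these motifs either. A match is only a match of letters.

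Each other member had neighbours in level over the 12 libraries by the same measure as FTH1. STMN1 and PDE4B ran most like SLC7A11 (r = 0.99 each). CLUH and CALM3 ran most like FTL, BAP1 and PPP6R2 like SLC3A2, and USP22 and PLP2 like NQO1 (r of 0.97 to 0.99). BSDC1 and GBA2 ran most like HMOX1, FIBP and SNRPF like GPX4, and GOLM1 and INTS14 like TFRC (0.96 to 0.98). HSDL1 and DEGS1 ran most like GCLM and MAPK6 and SSR3 like ACSL4 (0.96 to 0.97).

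Of 30 further genes of iron uptake, storage, export and haem, 28 were tested. With CPT-11, 10 were higher and 2 lower than untreated, with a median log2 difference of 0.05. These were 42.9% of the list, beside 16.5% of all genes. Both that fell are named by their small p: CPOX, an enzyme of haem synthesis, from 166 ± 2.22 to 116 ± 5.12 FPKM (adjusted p = 4.3e-05), and PCBP2, an RNA-binding protein that also carries iron, from 18.1 ± 0.814 to 12.6 ± 0.590 FPKM (adjusted p = 0.00012). HMOX2, the constitutive haem oxygenase, rose from 14.1 ± 0.527 to 18.9 ± 0.624 FPKM (adjusted p = 0.00051), and ISCU, the scaffold of iron-sulphur clusters, from 19.4 ± 1.75 to 31.0 ± 2.79 FPKM (adjusted p = 0.00056). Silenced cells had 6 higher and 2 lower than CPT-11 alone, 28.6% of the list beside 22.0% of all genes. STEAP3, a ferrireductase of the transferrin cycle, stood at 15.7 ± 0.802 against 11.5 ± 1.07 FPKM (adjusted p = 0.0048), and ALAS1, the first enzyme of haem synthesis, at 31.0 ± 1.09 against 36.9 ± 0.632 FPKM (adjusted p = 0.0067). HEPH, a ferroxidase of iron export, was also higher but stayed under 1 FPKM. Lovastatin with CPT-11 had none called against CPT-11 alone.

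Of 30 other genes of glutathione synthesis and use, 29 were tested, and with CPT-11 4 were higher and 3 lower than untreated (median 0.05), 24.1% of the list beside 16.5% of all genes. GSS, which completes glutathione, rose from 15.6 ± 0.446 to 20.7 ± 0.857 FPKM (adjusted p = 0.00060). GPX1, the cytosolic glutathione peroxidase, rose from 222 ± 26.3 to 371 ± 52.6 FPKM (adjusted p = 0.0020), while GPX4 fell. GGT1, which recycles extracellular glutathione, rose from 4.88 ± 0.494 to 8.71 ± 1.40 FPKM (adjusted p = 0.00063). In silenced cells 2 were higher and 3 lower than with CPT-11 alone, and against lovastatin with CPT-11 none was higher and 4 were lower. The shares called were 17.2% and 13.8% of the list, beside 22.0% and 6.84% of all genes. Of the 4 lower than with lovastatin, PGD, which makes NADPH in the pentose phosphate pathway, stood at 83.1 ± 1.90 against 112 ± 4.75 FPKM (adjusted p = 0.0012), and CHAC1, which degrades glutathione, at 3.26 ± 0.410 against 6.14 ± 0.334 FPKM (adjusted p = 0.0038).

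Of 30 genes of NRF2, its regulators and other targets, 29 were tested. With CPT-11, 5 were higher and 2 lower than untreated (median 0.01), led by AKR1B10, an aldo-keto reductase, at 4.68 ± 0.268 against 0.716 ± 0.175 FPKM (adjusted p = 3.7e-06). In silenced cells 5 were higher and 3 lower than with CPT-11 alone (median 0.01). The shares called in these comparisons were 24.1% and 27.6% of the list, beside 16.5% and 22.0% of all genes. NFE2L2, which encodes NRF2, fell from 21.7 ± 5.0 to 12.7 ± 0.596 FPKM (adjusted p = 0.0088). Its partner MAFK rose from 9.51 ± 3.13 to 17.2 ± 1.12 FPKM (adjusted p = 0.012), and SRXN1, sulfiredoxin, from 2.91 ± 2.17 to 7.49 ± 0.818 FPKM (adjusted p = 0.014). Without CPT-11 replicate 3 these 3 log2 differences went from −0.71, 0.83 and 1.25 to −0.90, 1.06 and 1.67 and were called. The AKR1C genes of this list are near-identical copies whose reads the counting could split.

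Of 35 further suppressors and drivers of ferroptosis, 33 were tested, and with CPT-11 12 were higher and 5 lower than untreated (median 0.04), 51.5% of the list beside 16.5% of all genes. ALOX5, a lipoxygenase, rose from 1.19 ± 0.238 to 4.51 ± 0.432 FPKM (adjusted p = 1.1e-05), and SAT1, a polyamine acetyltransferase and p53 target, from 135 ± 1.00 to 212 ± 9.02 FPKM (adjusted p = 0.00024). PROM2, a membrane protein linked to ferritin export, rose from 0.236 ± 0.0635 to 2.00 ± 0.333 FPKM (adjusted p = 1.4e-05) and to 6.35 ± 0.553 FPKM in silenced cells (against CPT-11 alone, adjusted p = 6.1e-05). SCD, which makes monounsaturated fatty acids, was the only gene of these lists called between lovastatin with CPT-11 and CPT-11 alone, at 328 ± 10.4 against 142 ± 2.79 FPKM (adjusted p = 1.2e-07). Silenced cells had 4 higher and 2 lower than CPT-11 alone, 18.2% of the list beside 22.0% of all genes. ACSL3, an acyl-CoA synthetase that favours monounsaturated fatty acids, was lower in silenced than in untreated cells, as was ACSL4: 13.8 ± 0.671 against 28.2 ± 2.56 FPKM (adjusted p = 3.5e-05).

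Of 24 genes listed for selenoproteins and selenocysteine insertion, all tested, 2 were higher and 2 lower with CPT-11 (median −0.04), the lower ones being SECISBP2 and SEPHS1. The share called, 16.7%, was that of all genes, 16.5%. SECISBP2 fell from 8.19 ± 0.229 to 6.2 ± 0.639 FPKM (adjusted p = 0.0067) and SEPHS1 from 18.1 ± 0.689 to 15.4 ± 0.791 FPKM (adjusted p = 0.016). In silenced cells 3 were higher and 2 lower than with CPT-11 alone, SELENOT, of the endoplasmic reticulum, among the lower at 15.7 ± 0.933 against 22.6 ± 2.52 FPKM (adjusted p = 0.0036). These were 20.8% of the list, beside 22.0% of all genes.

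The list counts against CPT-11 alone depended on replicate 3. Without it the higher and lower counts for lovastatin with CPT-11 were 3 and 1 of the iron genes, 9 and 3 of the glutathione genes, 10 and 1 of the NRF2 genes, 8 and 4 of the ferroptosis genes and 7 and 3 of the selenoprotein genes. For silenced cells they were 9 and 4, 6 and 4, 11 and 4, 7 and 6, and 8 and 5 in the same order. For CPT-11 against untreated they were 9 and 3, 5 and 3, 4 and 6, 11 and 6, and 4 and 8. As shares of the 5 lists, 14.3% to 41.7% were called for lovastatin against CPT-11 alone, beside 30.2% of all genes. For silenced cells the shares were 34.5% to 54.2%, beside 43.5%, and for CPT-11 against untreated 27.6% to 51.5%, beside 24.5%. Every gene named above from these lists in those 3 comparisons was called without it too.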

How the data were processed

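Gene expression was measured by RNA-seq in 12 HCT-116 libraries, grouped by sample title. The authors deposited FPKM values for 59172 features. HISAT2 2.0.5, StringTie 1.3.3b, featureCounts 1.5.0-p3, DESeq2 1.16.1 and hg19 are named in the submitters' processing notes, but the deposited coordinates are those of GENCODE 29 on GRCh38. Options for strand, overlaps and multiple mapping: not given in the sources used here. FPKM times gene length was a whole number of steps for 100% of nonzero deposited values within 0.01 of a read, so whole reads were recovered, 14447847 to 16224271 per library. The deposited scaling departed from total reads by factors of 0.977 to 1.06 and followed median-of-ratios size factors, so changes are relative to the typical gene.

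limma 3.58.1 (R 4.3.3, with trend) was run on log2(FPKM + 1), which understates changes of low genes, over all 12 libraries with 1 mean per group. P-values were adjusted by Benjamini-Hochberg over the 18062 genes that had 10 or more reads (rescaled to the median depth) in 3 or more libraries and 15 or more in total. Counting error does not cover variation between cultures. Lists were described by counts, and at most 4 genes of a list were named in a comparison, those with the smallest p among the called; the named genes otherwise were all 10 members, their nearest in level, and PTPN11, HMGCS1 and RN7SL2. Members and lists were chosen with earlier results of these data known. Alternatives were voom on recovered reads, a pseudocount of 0.1, no filter, a mean of 1 FPKM, scaling to total reads, fitting only the groups compared, replicate numbers as a block, and leaving out each library. The test was checked on simulated data.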

Additional observations from a re-analysis of the deposited data

How the results depend on the processing

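Of 60 member differences 27 were called. Over the 13 alternatives for each, 299 of 351 values of the called differences stayed called, 52 did not, and none changed sign. Of 429 values of the differences not called, 17 became called. Among these 8 differences, all at most 0.05 from 0 on the log2 scale, changed sign in 19 values, none of them called. Fitting only the groups compared gave 1154 genes for CPT-11 against untreated (2989 with all groups), 36 for lovastatin against CPT-11 alone (84), 451 for silenced cells against CPT-11 alone (3974) and 2438 for silenced against lovastatin (1235). Members called were then 3, 0 and 2 in the first 3 comparisons (6, 1 and 4). No filter gave 1750 genes for silenced against CPT-11 alone, and 0 members for lovastatin against CPT-11 alone. Voom gave 141 genes for lovastatin against CPT-11 alone.

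Correlations of same-numbered deviations from the group means were −0.39 to 0.17 over 18 pairs, and 1 of 12 libraries correlated best with its own number. With 3 libraries in a group, whose deviations sum to 0, these values cannot tell whether replicate numbers paired the samples. With the replicate number as a block 46 genes and 0 members were called for lovastatin against CPT-11 alone, 2356 genes for silenced against CPT-11 alone and 767 for silenced against lovastatin.

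Leaving out 1 library gave 1931 to 4420 genes and 4 to 7 members for CPT-11 against untreated, 41 to 5455 and 0 to 3 for lovastatin against CPT-11 alone, 1007 to 7849 and 2 to 7 for silenced against CPT-11 alone, 598 to 731 and 2 to 3 for silenced against lovastatin, 3768 to 4777 and 5 to 6 for lovastatin against untreated, and 5134 to 6564 and 6 to 7 for silenced against untreated. The highest counts of the first 3 came without CPT-11 replicate 3.

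Scaling to total reads moved the split of higher and lower genes from 1598 and 1391 to 1909 and 1003 for CPT-11 against untreated, from 1807 and 2167 to 2363 and 1637 for silenced against CPT-11 alone, from 466 and 769 to 633 and 675 for silenced against lovastatin, from 2654 and 2580 to 3245 and 1950 for lovastatin against untreated and from 3308 and 3520 to 4329 and 2571 for silenced against untreated. That scaling multiplies the values of a library by the ratio of its deposited scale to its total reads. The ratio was 0.977 to 0.984 untreated and 1.01 to 1.02 with CPT-11. It was 1.01 to 1.03 with lovastatin and 1.04 to 1.06 in silenced cells. Why the ratios differ was not tested.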
